A study of Rattus norvegicus with 6 samples.

Results

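The microRNAs miR-23, miR-27 and miR-24 come from a pair of gene clusters in the rat genome, called here the a cluster (miR-23a, miR-27a and miR-24-2) and the b cluster (miR-23b, miR-27b and miR-24-1). Their members were taken by name from a deposited table of mature microRNA counts, and 11 of its 1289 rows matched. Of these, 5 rows belong to the a cluster, 5 to the b cluster, and rno-miR-24-3p is 1 row for both, since both hairpins give the same molecule. Small RNA was sequenced in 6 libraries of PC12, a line derived from a rat adrenal pheochromocytoma and used as a neuron-like model. There were 3 libraries labelled EN and 3 labelled EC. These abbreviations are not explained in the labels, which name no dose, time or passage, while the series title concerns endothelial cell exosomes engineered with Netrin-1, an axon guidance protein, in nerve repair. Separate cultures are not stated for the libraries of a group, and the p-values then rest on a spread between libraries that may be technical only.

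A microRNA hairpin is cut by Drosha and Dicer into a duplex of a 5p and a 3p arm. An Argonaute protein keeps mainly the guide arm, while the other, the passenger, is mostly degraded. The guide silences mRNAs through its seed, bases 2 to 8. Each of these clusters is transcribed as 1 primary RNA, yet the level of each mature arm also depends on processing and decay. The guides are the 3p arms. MiR-23 and miR-27 are known from endothelial sprouting and blood vessel growth, miR-24 from restraint of the cell cycle and of apoptosis, and miR-27 also from fat cell differentiation.

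The sequences below, from RefSeq with positions on build GRCr8, show how alike the paralogs are, and which rows their reads could share. The table held 10 of the 11 members and rno-miR-23a-5p is named only. The seed is in capitals, and reading is 5′ to 3′.
rno-miR-23a-3p: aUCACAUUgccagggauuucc
rno-miR-23b-3p: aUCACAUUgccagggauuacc
rno-miR-27a-3p: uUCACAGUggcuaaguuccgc
rno-miR-27b-3p: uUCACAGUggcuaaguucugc
rno-miR-24-3p: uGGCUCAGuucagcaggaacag
rno-miR-24-2-5p: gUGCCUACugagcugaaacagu
rno-miR-24-1-5p: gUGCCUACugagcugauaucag
Counting from 1 at the 5′ end, miR-23a-3p and miR-23b-3p differ by 1 base, U19A, and miR-27a-3p and miR-27b-3p by C19U, so each pair shares its first 18 bases and its seed. The miR-24 passengers share their first 16 bases and differ by A17U, C19U, A20C, G21A and U22G. Whether the counting tool allowed mismatches or trimmed 3′ ends, and how it treated reads that fit both rows, is not stated in the sources used here. A split of reads within such a pair is therefore less certain than the pair's sum.

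The hairpins of miR-24-2 and miR-24-1 show why miR-24-3p cannot be assigned to a cluster. The mature arms are in capitals, the 5p arm first, and the 3p arm is the same in both.
Mir24-2: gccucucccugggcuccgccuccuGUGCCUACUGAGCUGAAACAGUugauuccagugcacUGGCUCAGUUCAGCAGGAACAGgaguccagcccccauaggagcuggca
Mir24-1: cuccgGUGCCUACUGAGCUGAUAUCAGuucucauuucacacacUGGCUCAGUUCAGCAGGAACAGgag
Mir23a at chr19:40859769-40859843, Mir27a at chr19:40859603-40859689 and Mir24-2 at chr19:40859455-40859562 lie on the minus strand within 389 bases and overlap no other annotated gene. Mir23b at chr17:1819386-1819482, Mir27b at chr17:1819147-1819243 and Mir24-1 at chr17:1818669-1818736 lie on the minus strand within 814 bases, inside the gene Aopep, an aminopeptidase. On the opposite strand, the gene of miR-3074 covers all 68 bases of Mir24-1, and its mature form shares 20 positions with miR-24-1-5p.

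The EN libraries held 4521694 to 5371351 microRNA counts and the EC libraries 6153582 to 6554639, which were 25.0 to 26.9 percent and 30.9 to 32.6 percent of the library totals implied by the authors' RPM values. Levels below are counts scaled to the library's microRNA counts after TMM normalization (CPM). They carry no length correction, since these mature forms are 21 to 24 bases long, and cloning efficiency varies between sequences. Fewer cells with a microRNA and less of it per cell cannot be told apart. Of 7 neuroendocrine markers, summing to 14424 to 18008 CPM in EN and 13799 to 15399 CPM in EC, miR-218a-5p, miR-129-5p and miR-7a-5p made up nearly all and miR-375-3p stood at 1.99 to 3.19 CPM over all libraries. The 5 neuronal markers summed to 2270.3 to 2574 CPM in EN and 2135 to 2550 CPM in EC, most of it miR-9a-5p and miR-128-3p, while miR-124-3p reached at most 1.10 CPM and miR-137-3p at most 0.370 CPM. Of these neuronal markers miR-128-3p was called higher in EN. MiR-9a-3p went the other way without being called, at 150, 113 and 120 CPM in EN against 165, 187 and 182 CPM in EC. MiR-9a-5p stood at 1254, 1002 and 1030 CPM in EN against 1221, 1640 and 1465 CPM in EC, which overlapped. Blood markers summed to 157 to 179 CPM in EN and 94.5 to 128 CPM in EC. Those of fibroblasts and smooth muscle summed to 214.2 to 221.9 CPM in EN and 164 to 186 CPM in EC. Most of the latter sum was miR-199a-3p, at 186.1 CPM or more in EN and 153.6 CPM or less in EC. MiR-143-3p and miR-145-5p reached at most 2.29 and 0.876 CPM, and miR-199a-5p overlapped between the groups. MiR-214-3p went the other way, at 1.48, 1.14 and 1.31 CPM in EN against 5.87, 1.76 and 2.90 CPM in EC. Of the fibroblast and smooth muscle markers 3 could be tested, and none was called. Of the blood markers 2 could be tested, and 1 was called higher in EN. MiR-451-5p stood at 30.5, 19.7 and 19.7 CPM in EN against 5.10, 9.42 and 9.77 CPM in EC. For miR-150-5p the values were 124, 142 and 158 CPM in EN against 119, 83.0 and 95.8 CPM in EC. The muscle marker miR-206-3p stood at 28.9 CPM in EC replicate 1 and at most 3.21 CPM elsewhere, and the liver marker miR-122-5p at 8.23 to 14.4 CPM in EN and 5.96 to 9.74 CPM in EC. The 2 endothelial markers summed to 1086 to 1229 CPM in EN and 1064 to 1144 CPM in EC, nearly all of it miR-126a-3p. The other, miR-126a-5p, stood at 31.8, 39.3 and 28.5 CPM in EN, against 66.3, 56.8 and 57.7 CPM in EC, and was called lower in EN (log2 fold change -0.86, SE 0.17, adjusted p = 0.0471, edgeR). The part of such cells in the results was not tested.

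In EN the guide of miR-23a was higher and the passenger of miR-24-2 lower than in EC, although both derive from the a cluster. None of the other 9 rows passed the test over all rows. MiR-23a-3p rose 1.41-fold and miR-24-2-5p fell to 0.545-fold of its EC level. Tested with edgeR (quasi-likelihood) and adjusted by Benjamini-Hochberg over 628 rows, 2 of the 11 members passed at an adjusted p under 0.05, beside 3.98 percent of all rows tested. All 11 members passed the filter on low counts.

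MiR-23a-3p, known in mouse endothelial cells as a repressor of the growth factor signalling inhibitor Sprouty2, stood at 40644, 45410.3 and 42819 CPM in the EN libraries, against 33045, 29909 and 28685 CPM in the EC libraries. Every EN library was above every EC library. The log2 fold change was 0.49 (SE 0.084, adjusted p = 0.0256, n = 3 each, edgeR). It was the 5th most abundant row in every EN library and the 8th to 11th in EC. The adjusted p was 0.102 when EN replicate 2 was left out, 0.121 for EN replicate 3 and 0.0829 for EC replicate 3, while the log2 fold change stayed between 0.46 and 0.56.

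MiR-27a-3p, of the same primary transcript, stood at 17535, 19792 and 20033 CPM in EN, against 20352, 21648 and 17678 CPM in EC. The groups overlapped, and the log2 fold change was -0.057 (SE 0.10, adjusted p = 0.782). MiR-24-3p stood at 37164, 37034.5 and 37738 CPM in EN, against 66109, 34077 and 52515 CPM in EC. The EN libraries were nearly alike, while EC replicate 2 lay below all of them and the other EC libraries well above. The coefficient of variation of miR-24-3p was 1.00 percent in EN and 31.6 percent in EC. The EC value ranked 2nd among the 29 rows of 10000 CPM or more, whose median was 8.25 percent. The log2 fold change of miR-24-3p was -0.45 (SE 0.23, adjusted p = 0.310), and without EC replicate 2 it was -0.64 with an adjusted p of 0.0280. When EC replicate 1 was left out it was -0.21 with an adjusted p of 0.615.

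The guides of the b cluster did not pass. MiR-23b-3p stood at 21596, 23194 and 16320.2 CPM in EN, against 22708, 24778 and 22715 CPM in EC. EN replicates 1 and 3 lay below all EC libraries, replicate 3 the lowest, while EN replicate 2 lay within the EC range, so the groups overlapped. MiR-27b-3p stood at 6072, 6564 and 7224 CPM in EN, against 7909.95, 7378 and 6900.3 CPM in EC, again with overlap. The log2 fold changes were -0.20 (SE 0.13, adjusted p = 0.448) for miR-23b-3p and -0.16 (SE 0.10, adjusted p = 0.418) for miR-27b-3p.

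Among the passengers, the 5p arms of miR-24 were lower in every EN library than in any EC library. MiR-24-2-5p stood at 1009, 1001 and 1066 CPM in EN, against 2229, 1570.2 and 1849 CPM in EC, a log2 fold change of -0.88 (SE 0.15, adjusted p = 0.0228, n = 3 each, edgeR). Its adjusted p was 0.107 when EN replicate 2 was left out, 0.121 for EN replicate 3, 0.0545 for EC replicate 1 and 0.0962 for EC replicate 3, with log2 fold changes from -0.97 to -0.73 over the libraries left out. MiR-24-1-5p was counted 91, 91 and 86 times in EN and 181, 182 and 186 times in EC. That made 16.8, 20.8 and 18.8 CPM in EN and 28.0, 29.1 and 28.4 CPM in EC, and its log2 fold change of -0.60 (SE 0.14) had an adjusted p of 0.0594. Summed with miR-3074 on the opposite strand, which had 22 to 37 counts in EN and 28 to 51 in EC, the log2 fold change was -0.50 (SE 0.15, adjusted p = 0.101).

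MiR-27b-5p stood at 45.7, 47.1 and 44.5 CPM in EN, against 57.3, 57.3 and 50.2 CPM in EC. These groups did not overlap, but the log2 fold change of -0.26 (SE 0.14) had an adjusted p of 0.299. MiR-27a-5p stood at 485, 762 and 886 CPM in EN, against 663, 617 and 559 CPM in EC, with EN replicate 1 below and the other EN libraries above all of EC. Rno-miR-23a-5p, the passenger of the row that rose, stood at 45.3, 54.9 and 54.6 CPM in EN, against 59.6, 51.1 and 69.5 CPM in EC. MiR-23b-5p stood at 370, 395 and 346 CPM in EN, against 326, 350.3 and 415 CPM in EC. The last 3 rows overlapped between the groups, with log2 fold changes of 0.21 (SE 0.22) for miR-27a-5p, -0.22 (SE 0.17) for miR-23a-5p and 0.025 (SE 0.14) for miR-23b-5p, and adjusted p of 0.645, 0.526 and 0.926. With 1 library left out, the value of miR-27a-5p lay between 0.025 (EN replicate 3) and 0.42 (EN replicate 1). Over the 11 members, 4 did not overlap between the groups, or 1 higher and 3 lower, beside 29.6 percent of all rows.

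**Figure D1:**
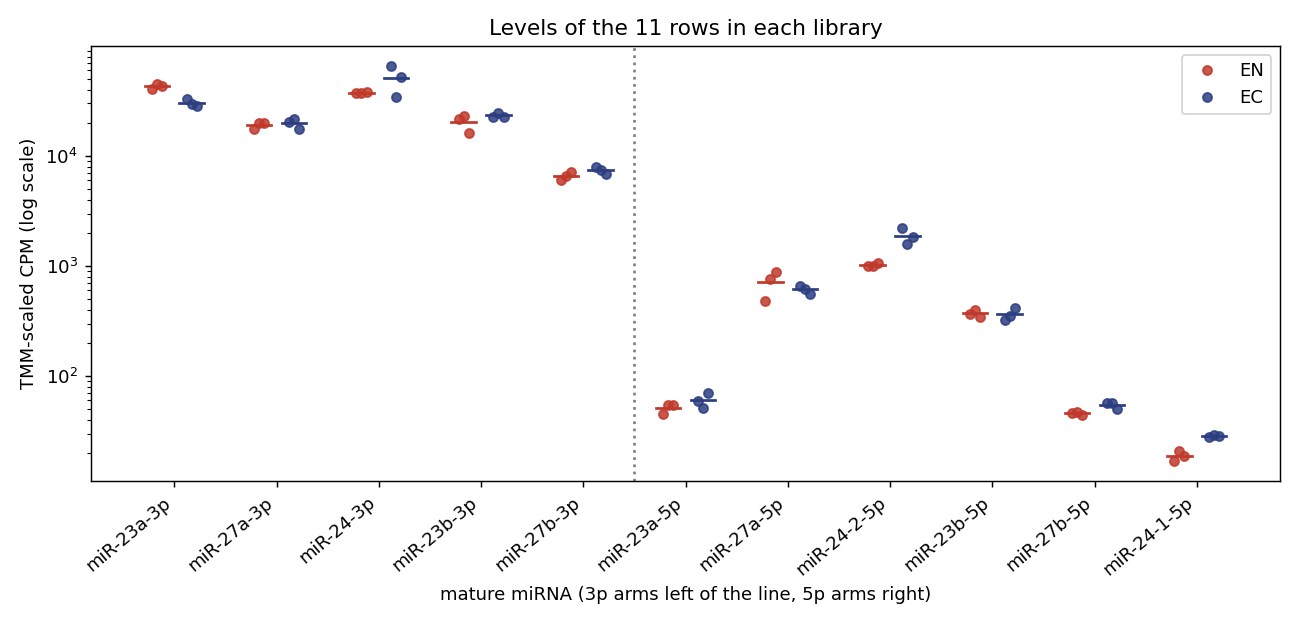
TMM-scaled CPM on a log axis for each of the 11 rows, with 1 point per library, EN left and EC right of each position, and a bar at the mean of 3 libraries. MiR-23a-3p lies higher in all EN libraries, miR-24-2-5p, miR-27b-5p and miR-24-1-5p lie lower in all of them, and the EC values of miR-24-3p spread from 34077 to 66109 CPM.

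How far these rows moved depended on the denominator. With the library totals implied by the authors' RPM values in place of microRNA counts, the median log2 fold change of all rows went to -0.31, against 0.020 with TMM scaling, as EN libraries held a smaller share of microRNA counts. On that scale miR-23a-3p stood at 10986, 10979 and 10943 RPM in EN, against 10852, 9805 and 8857 RPM in EC, and its log2 fold change fell short of the threshold at 0.16 (SE 0.097, adjusted p = 0.305). The other 10 members had negative values, and 5 were called lower, beside 13.2 percent of all rows. These were miR-24-2-5p at -1.21, miR-24-1-5p at -0.93, miR-27b-5p at -0.60, miR-23b-3p at -0.53 and miR-27b-3p at -0.49, where 4 of the 5 belong to the b cluster. That count depends on the cutoff. Just short of it were miR-24-3p at -0.78 (adjusted p = 0.0670, edgeR), miR-23a-5p at -0.55 and miR-27a-3p at -0.39 (adjusted p = 0.0554 each, edgeR). The member median was -0.53 with implied totals and -0.20 with TMM scaling.

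**Figure D2:**
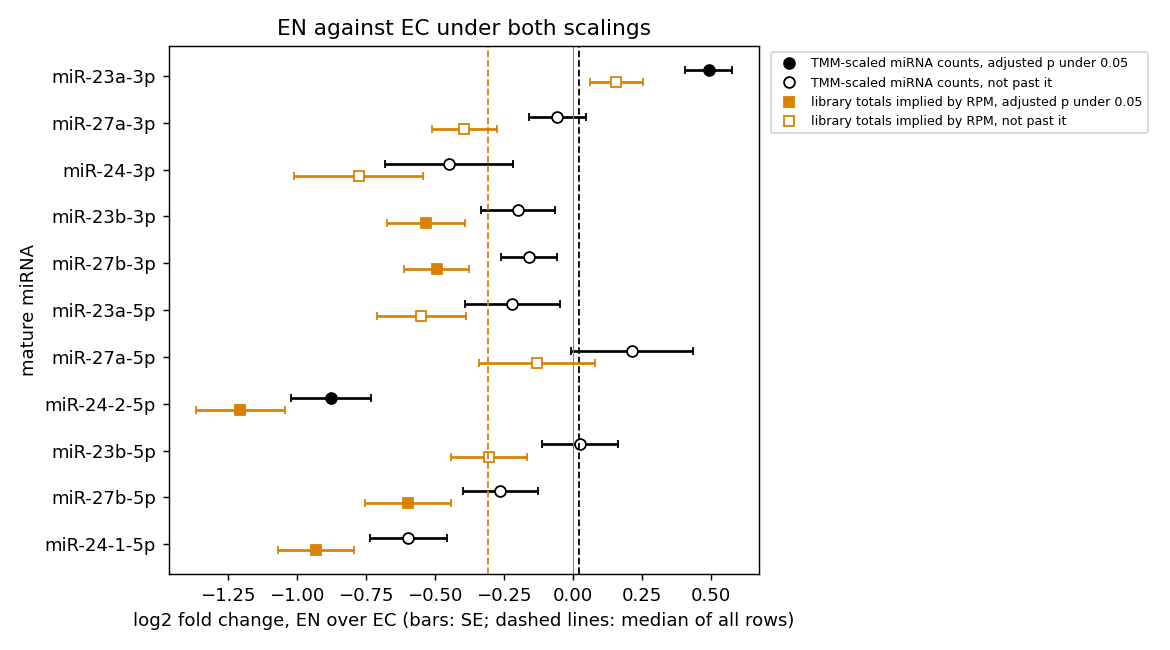
Log2 fold change of EN over EC for each row with its SE, under TMM-scaled microRNA counts (circles) and library totals implied by RPM (squares), filled where the adjusted p was under 0.05. Dashed lines mark the median of all rows, 0.020 and -0.31, and miR-23a-3p is the member farthest above either line.

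Ratios between rows of 1 library do not depend on its scaling. Relative to its cluster partners and its paralog, the guide of miR-23a stood higher in EN, though the test used could not pass any ratio. For each count of miR-27a-3p there were 2.32, 2.29 and 2.14 counts of miR-23a-3p in EN, against 1.62, 1.38 and 1.62 in EC. For each count of miR-24-3p there were 1.09, 1.23 and 1.13 counts of miR-23a-3p in EN, against 0.4999, 0.878 and 0.546 in EC. For each count of miR-23b-3p there were 1.88, 1.96 and 2.62 in EN, against 1.46, 1.21 and 1.26 in EC. In all of these ratios the EN libraries lay above the EC libraries. They share the numerator miR-23a-3p, called above, and so are not independent of that call. The share of such separation over pairs of other rows was not computed. The log2 differences were 0.55 over miR-27a-3p, 0.89 over miR-24-3p and 0.71 over miR-23b-3p, and the two-sided exact permutation test gave each a p of 0.1, which is the lowest value possible with 3 libraries a group. Over the 11 ratios computed, the adjusted exact p was 0.367 for each, so none passed.

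The ratios that leave out miR-23a-3p overlapped between the groups. There were 2.89, 3.02 and 2.77 counts of miR-27a-3p for each of miR-27b-3p in EN, against 2.57, 2.93 and 2.56 in EC, a log2 difference of 0.11 with an exact permutation p of 0.3. Within the b cluster, miR-23b-3p over miR-27b-3p was 3.56, 3.53 and 2.26 in EN, against 2.87, 3.36 and 3.29 in EC, a log2 difference of -0.054. MiR-27a-3p over miR-24-3p was 0.472, 0.534 and 0.531 in EN, against 0.308, 0.635 and 0.337 in EC, so EC replicate 2 lay above all EN libraries and the other EC libraries below. The a to b ratios of the passengers also overlapped between the groups. MiR-24-2-5p exceeded miR-24-1-5p 59.9-fold, 48.1-fold and 56.6-fold in EN, against 79.7-fold, 54.0-fold and 65.1-fold in EC, with an exact permutation p of 0.3. Log2 ratios of the a to the b passenger differed by -0.24 for miR-23 and 0.43 for miR-27, with exact permutation p of 0.2 and 0.4.

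**Figure D3:**
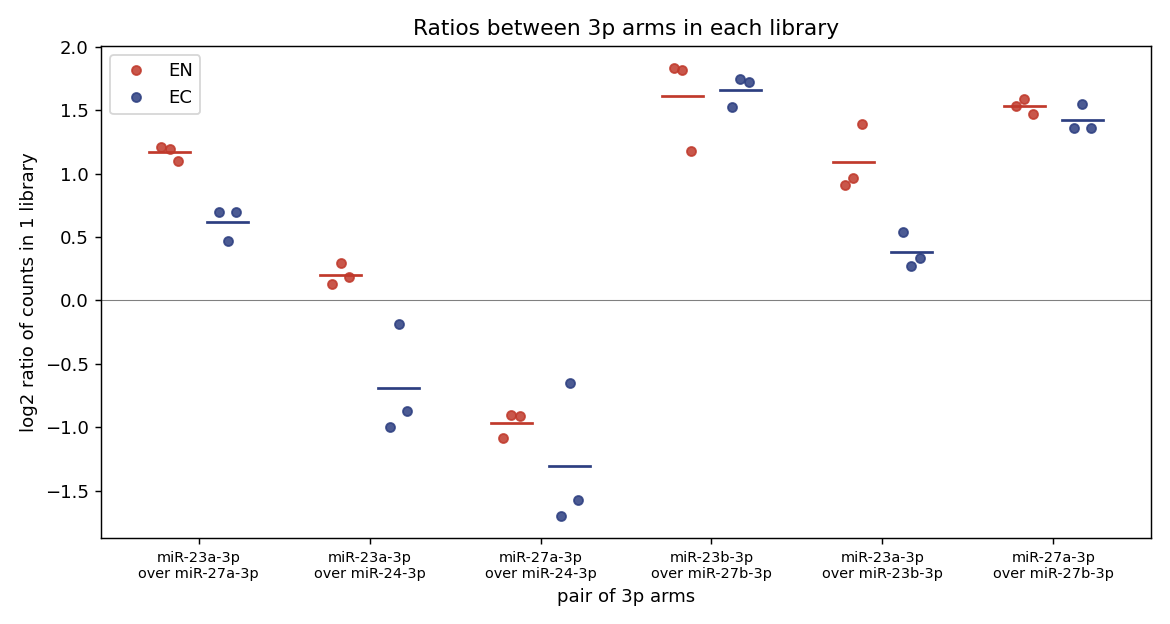
Log2 ratio of the counts of a pair of 3p arms in each library, EN left and EC right, with a bar at the mean of 3 libraries. The ratios of miR-23a-3p to miR-27a-3p, to miR-24-3p and to miR-23b-3p do not overlap between the groups, while those of miR-27a-3p to miR-27b-3p and of miR-23b-3p to miR-27b-3p do.

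Since the miR-23 guides share a seed and all but 1 base, their sum was fitted in place of both rows. MiR-23a-3p made up 65.3, 66.2 and 72.4 percent of it in EN, against 59.3, 54.7 and 55.8 percent in EC. The sum had a log2 fold change of 0.23 (SE 0.079) with an adjusted p of 0.142, so the miR-23 seed as a whole did not pass. The miR-27 guides summed to -0.091 (SE 0.097, adjusted p = 0.650), with miR-27a-3p at 74.3, 75.1 and 73.5 percent in EN and 72.0, 74.6 and 71.9 percent in EC. The summed miR-24 passengers fell by 0.87 (SE 0.14, adjusted p = 0.0220), as miR-24-2-5p made up nearly all of them. Their adjusted p was 0.103 when EN replicate 2 was left out, 0.118 for EN replicate 3, 0.0527 for EC replicate 1 and 0.0923 for EC replicate 3. The rows of the a cluster without miR-24-3p had a log2 fold change of 0.27 (SE 0.084, adjusted p = 0.109) and those of the b cluster one of -0.19 (SE 0.098, adjusted p = 0.296). Sums were chosen after seeing the data.

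In the hairpins of miR-23a, miR-23b, miR-27a and miR-27b the 3p arm had more counts than the 5p arm in every library, while for miR-24-1 and miR-24-2 the 3p counts are those of the row they share. Arm use was compared by limma on the log2 ratio of 5p to 3p counts in 130 pairs, of which 3.08 percent passed after Benjamini-Hochberg adjustment, and 0 of the 6 member hairpins did. An unadjusted p under 0.05 was met by 25 of all pairs and by miR-23a and miR-24-2 among the members. For each count of miR-23a-5p there were 897, 828 and 785 of miR-23a-3p in EN, against 554, 585 and 413 in EC. For each count of miR-24-2-5p there were 36.8, 37.0 and 35.4 of miR-24-3p in EN, against 29.7, 21.7 and 28.4 in EC, where the 3p row also holds what miR-24-1 gives. In both hairpins every EN library had fewer passenger counts relative to the guide than any EC library. The log2 ratio of 5p to 3p differed by -0.70 (SE 0.18, adjusted p = 0.0996) for miR-23a and by -0.47 (SE 0.13, adjusted p = 0.132) for miR-24-2, and without EC replicate 2 both passed, at -0.80 and -0.33 with an adjusted p of 0.0446 each. In that fit 16.2 percent of all pairs passed, or 21 of 130. The other hairpins overlapped between the groups, so 2 of the 6 did not, beside 26.9 percent of all pairs. Their differences were 0.23 (SE 0.19) for miR-27a, 0.25 (SE 0.16) for miR-23b, -0.098 (SE 0.16) for miR-27b and -0.20 (SE 0.27) for miR-24-1, with adjusted p from 0.387 to 0.775.

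**Figure D4:**
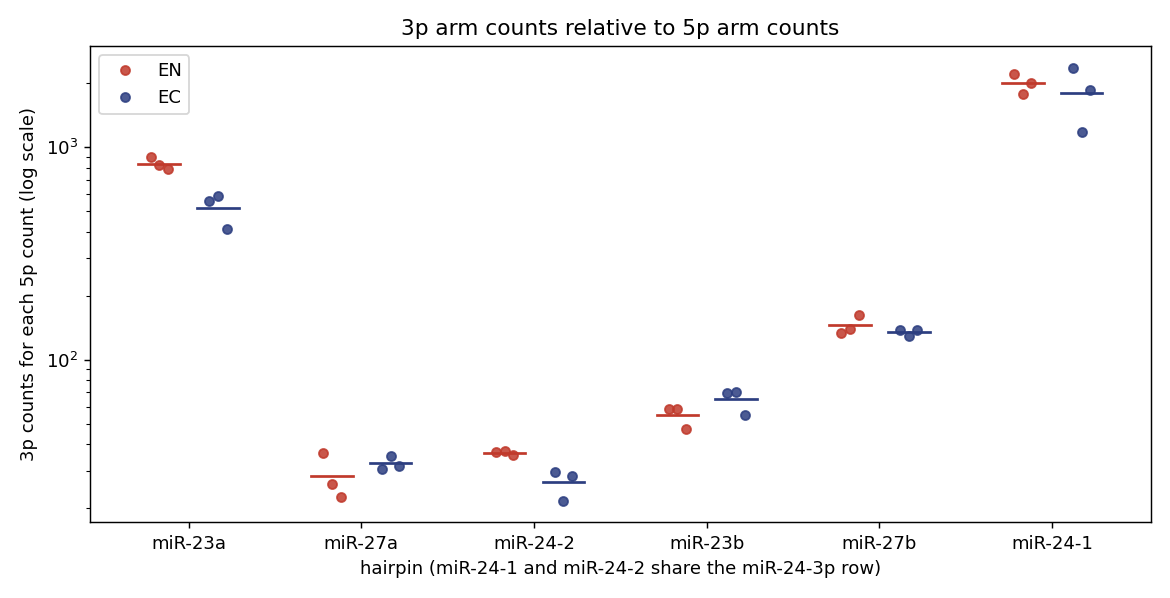
Counts of the 3p arm for each count of the 5p arm on a log axis, with 1 point per library, EN left and EC right, and a bar at the mean of 3 libraries. MiR-23a (785 to 897 in EN, 413 to 585 in EC) and miR-24-2 (35.4 to 37.0 in EN, 21.7 to 29.7 in EC) do not overlap between the groups, and the other hairpins do, where both miR-24 hairpins use the shared 3p row.

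The 11 members together held 12.6, 12.99 and 12.7 percent of microRNA counts in EN, against 15.4, 12.3 and 13.1 percent in EC, a difference of -0.86 percentage points for which the exact permutation test (two-sided) gave p = 0.6. The a cluster rows without miR-24-3p held 6.01, 6.48 and 6.50 percent in EN, against 5.67, 5.47 and 4.88 percent in EC. The b cluster rows held 2.83, 2.92 and 2.40 percent in EN, against 3.12, 3.32 and 3.01 percent in EC. In these shares, which carry no TMM factors, the groups did not overlap in either cluster. Both had an exact permutation p of 0.1, the smallest possible. With TMM scaling the summed b cluster rows had a log2 fold change of -0.19 (SE 0.098, adjusted p = 0.296, edgeR). The most abundant row of the b cluster, miR-23b-3p, overlapped between the groups in CPM. Most a cluster counts were those of miR-23a-3p, called above, so the a cluster separation is not independent of that call. MiR-27a-3p, the next most abundant row of the a cluster, overlapped between the groups. No background share was computed for such sums of rows. As a share of the implied library totals, the a cluster rows held 1.61, 1.62 and 1.66 percent in EN, against 1.85, 1.76 and 1.51 percent in EC, which overlapped. On that divisor the b cluster rows held 0.760, 0.731 and 0.612 percent in EN, against 1.02, 1.07 and 0.930 percent in EC, and all 11 members 3.38, 3.25 and 3.23 percent in EN, against 5.04, 3.95 and 4.06 percent in EC. Neither overlapped, again with an exact permutation p of 0.1.

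Outside the clusters, RefSeq seeds were searched within the first 10 bases of each member. The brain-enriched rno-miR-128-3p has the seed CACAGUG, which is bases 3 to 9 of the miR-27 guides.
rno-miR-128-3p: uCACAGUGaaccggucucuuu
It stood at 1169.6, 1196 and 1119 CPM in EN, against 749, 722 and 687 CPM in EC, with no overlap, and rose by 0.69 (SE 0.10, adjusted p = 0.0177, edgeR) while the miR-27 guides did not pass. MiR-222-5p, whose seed GCUCAGU is bases 3 to 9 of miR-24-3p, had 8 to 12 counts in EN and 7 to 19 in EC and did not pass. MiR-216a-3p, whose seed ACAGUGG starts at base 4 of the miR-27 guides, was not among the rows tested.

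Another list held microRNAs known from endothelial cells and vessel growth, with 67 rows tested. Of these 1 rose, miR-222-3p, and 1 fell, miR-126a-5p, beside 3.98 percent called over all rows tested. MiR-222-3p stood at 73272, 79122 and 79648 CPM in EN, against 54964, 57205 and 53651 CPM in EC. Its log2 fold change was 0.48 (SE 0.067, adjusted p = 0.0167, edgeR). The list median was -0.077, beside -0.20 for the 11 members, -0.072 for all rows of known microRNAs and 0.020 for all rows, predicted ones included. By the root mean square difference of row-centred log2 CPM over 6 libraries, among 165 other known rows of 100 CPM or more, miR-23a-3p was most like miR-222-3p (0.068), miR-187-3p (0.075) and miR-99b-3p (0.094), where the median over these rows was 0.364. Likewise miR-24-2-5p was most like miR-484 (0.121), miR-106b-5p (0.122) and miR-500-3p (0.153), with a median of 0.471. MiR-24-3p was most like miR-151-3p (0.115), miR-30d-5p (0.115) and miR-186-5p (0.142), with a median of 0.402. None of the rows nearest to these members was another member, but miR-23a-5p, miR-27b-5p and miR-24-1-5p lay below 100 CPM and were not searched.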

How the data were processed

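The authors deposited whole-number read counts per mature microRNA and library, beside RPM values scaled by the authors to a library total above the summed microRNA counts. The submitters' processing notes name HISAT2 2.0.5 and build Rnor 6.0. The counting program, annotation, strand setting and rule for reads that fit several rows are not stated in the sources used here. RPM served only to recover that total, which fits all values within 0.0005, and to give levels on that scale. The table holds 584 known and 705 predicted rows, and no row without a name.

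EN was compared with EC by edgeR 4.0.16 in R 4.3.3 (filterByExpr, TMM factors, robust quasi-likelihood test, Benjamini-Hochberg adjustment over 628 rows, threshold 0.05, no block). SE is the absolute log2 fold change over the square root of F. Arm use was tested by limma 3.58.1 on the log2 ratio of 5p to 3p counts, with a pseudocount of 1, where both arms averaged 20 counts or more. Other ratios used the same pseudocount, and they and the shares were tested by exact permutation, two-sided (scipy 1.17.1). DESeq2 1.42.0 was an alternative. The edgeR and limma fits were first checked on simulated counts, with a capped spread and planted changes larger than those of the members called. The exact permutation tests were not part of that check. The SEs printed come from the edgeR or limma fits over all 6 libraries, while coefficients of variation are over the 3 libraries of a group.

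Members, lists and tests were chosen with earlier results of these data known. All members are named, together with the 3 known rows most alike to miR-23a-3p, miR-24-2-5p and miR-24-3p, tested rows of shared or offset seed, and members of the endothelial list that passed. RefSeq sequences and neighbouring genes are of GRCr8, and no position is given for the authors' build. Figures used matplotlib 3.10.9.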

Additional observations from a re-analysis of the deposited data

How the results depend on the processing

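The count of 25 rows called, 13 higher and 12 lower in EN, became 95 (12 higher, 83 lower) with library totals implied by RPM, 44 (21 higher, 23 lower) without a filter, 88 (39 higher, 49 lower) with DESeq2 and 2 to 39 without 1 library. Members called, 2 as reported, were 5 with library totals implied by RPM and 0 to 3 without 1 library, and member hairpins with changed arm use were 0 to 2 without 1 library, where 0 to 21 of all pairs passed (4 as reported, 21 without EC replicate 2). MiR-23a-3p kept a positive and miR-24-2-5p a negative log2 fold change in all 16 alternatives each, and each passed in 11 of them. MiR-24-1-5p passed in 4 of its 16 alternatives, those without scaling factors, with implied totals, at a mean of 10 CPM or more and by DESeq2. MiR-24-3p passed only without EC replicate 2.

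Under a replicate block by number, 2 rows and 0 members were called, with adjusted p of 0.127 for miR-23a-3p and 0.113 for miR-24-2-5p (edgeR). The deviations from the group means of libraries with the same number had correlations of 0.26, 0.000173 and 0.195 over 189 rows. Libraries of different numbers had -0.32 to 0.123. Replicates 1 and 3 of either group were closest to their own number, and replicate 2 of either group was closer to another. These values do not settle whether the numbers pair the libraries. The labels state no pairing, so the main fit used no block.

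Directions turned for values that had not passed. With implied totals the log2 fold change became -0.13 for miR-27a-5p, -0.30 for miR-23b-5p, -0.10 for the summed miR-23 guides and -0.066 for the a cluster without miR-24-3p, as the divisor moved the median of all rows to -0.31. MiR-27a-3p became 0.020 without predicted rows and ranged from -0.12 to 0.030 without 1 library. MiR-23b-5p became -0.0027 without a filter and ranged from -0.040 to 0.14 without 1 library. Without 1 library, the arm use of miR-24-1 ranged from -0.43 to 0.080, miR-23b-3p over miR-27b-3p from -0.16 to 0.16, miR-23b-3p over miR-24-3p from -0.055 to 0.49 on the log2 scale, and the members' share from -1.54 to 0.054 percentage points. The cause of the other shifts was not tested. The log2 ratios of miR-23a-3p ranged without 1 library from 0.47 to 0.59 over miR-27a-3p, 0.73 to 1.14 over miR-24-3p and 0.56 to 0.797 over miR-23b-3p. No block was used for ratios and shares, which have no test across rows. MiR-24-1-5p had the lowest counts of the members, 86 to 91 in EN, and a limit set by depth was not tested.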
